A study of Mus musculus with 8 samples.

Results

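The early secretory pathway machinery comprises the genes that move a newly made protein into the endoplasmic reticulum (ER) and carry it between the ER and the Golgi. Its members were taken by gene name alone: genes whose symbol begins with Sec11, Sec13, Sec16, Sec22, Sec23, Sec24, Sec31, Sec61, Sec62, Sec63, Copa, Copb, Cope, Copg, Copz, Tmed, Sar1a, Sar1b, Ssr, Srp or Spcs followed by the subunit number, with pseudogene names left out. This rule reads gene names only, and it gave 59 genes of the 22564 in the table. They fall into 8 groups: the signal recognition particle (8 genes), the Sec61 translocon with its partners (6), the translocon-associated protein (TRAP) complex (4), the signal peptidase complex (5), the COPII coat with its exit site factors (14), the COPI coat (8), the p24 family (11) and the Sec22 family (3).

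Liver RNA was sequenced in 4 libraries of untreated db/db mice, which lack a working leptin receptor and become obese and diabetic with a fatty liver, and in 4 libraries of untreated control mice of strain C57BL/6. The labels state neither age nor sex, do not say on which strain the db/db mutation is carried, and do not say that each library came from its own animal. The p-values therefore rest on library-to-library spread, part of which could be technical. The comparison asks how liver expression changes in a model of fatty liver caused by a genetic defect. Values are FPKM, in which the fragments of a gene are divided by its transcript length and by the size of the library, and are listed in the order of replicates 1 to 4 or summarised as mean ± SD (n = 4 in each group).

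Proteins destined for secretion carry a signal peptide that the signal recognition particle binds on the ribosome and delivers to the Sec61 channel in the ER membrane. The TRAP complex sits beside the channel, and signal peptidase cuts the signal off. COPII coats then bud vesicles from ER exit sites, COPI coats return material from the Golgi, p24 proteins act as cargo receptors in both, and the SNARE Sec22b drives fusion. The hepatocyte is a heavily secreting cell that makes most plasma proteins and the very-low-density lipoproteins, and the COPII GTPase SAR1B is known in humans as the gene mutated in a disorder of intestinal lipoprotein secretion.

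Each library summed to between 555661 and 676884 FPKM, and between 9592 and 9948 genes reached 1 FPKM. An FPKM table keeps no read totals. From the step between low values the relative depth was 0.888 to 1.037 of that of control replicate 1. On the first principal component of all tested genes (64.6% of the variance) the groups separated, and db/db replicate 1 stood apart on the second (27.6, other db/db libraries from -14.78 to -4.97). Hepatocyte markers summed to 27619 to 44499 FPKM in db/db and 38763 to 46789 FPKM in control libraries, with 3 of 5 lower in db/db, so the tissue label held. Most of both sums was Apoa2 (27884 against 25000 FPKM), which was not called, nor was Cps1 (335 against 383 FPKM). The lower ones were Ahsg (2983 against 7194 FPKM), Serpina1a (1051 against 2055) and Ttr (4828 against 7766). The summed markers of Kupffer cells (69.5 to 91.4 against 90.7 to 146 FPKM) and of endothelial cells (42.6 to 47.5 against 52.5 to 63.5 FPKM) ranged lower in db/db libraries. The endothelial list was split, with Clec4g lower (30.3 against 43.4 FPKM) and Lyve1 at 3.82 against 2.09 FPKM. Those of plasma cells ranged higher (64 to 98.1 against 40.3 to 64.1 FPKM), almost wholly through Sdc1, which hepatocytes also express. Derl3 was lower (0.16 against 2.38 FPKM, log2 fold change -1.41, adjusted p = 0.00405) and Igj was 0.767 against 1.93 FPKM. Mzb1 went the other way, at 0.0656 to 0.371 FPKM in db/db and 0 in control libraries. Tnfrsf17 was listed at 0 in all 8 libraries. Of 7 pancreatic acinar markers, 4 were listed at 0 throughout, and Cela1 accounted for most of a sum of 1.81 to 2.83 in db/db against 15.1 to 21.3 in control libraries. Adipocyte markers summed to 2.2 to 8.86 against 0.489 to 3.38 FPKM. The higher sum came from Retn (5.23 against 0.108 FPKM). Adipoq (0.0946 against 0.215 FPKM), Cfd (0.737 against 1.16) and Plin1 (0 against 0.0386) had lower means in db/db, and Lep was listed at 0. Cholangiocyte markers summed to 1.42 to 3.88 against 1.76 to 4.18 FPKM and stellate cell markers to 86.9 to 110 against 86.3 to 103 FPKM. The part of these marker differences in the results below was not tested. In bulk tissue, fewer cells of a type and less RNA per cell cannot be told apart.

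Of the 54 members that could be tested, 8 were expressed at a higher and 4 at a lower level in db/db than in control livers (adjusted p under 0.05 in limma). These are 14.8% and 7.41% of the tested members. Of all 9863 tested genes, 16.0% were higher and 11.6% lower by the same rule (27.7% in either direction), so the totals lie near or below the background and are not a result about the members as a whole. The median log2 fold change of the members was 0.04, equal to the 0.04 of all tested genes. In 8 members every db/db library lay above every control library, and in 5 every one lay below. The same held for 17.3% and 12.1% of all tested genes. The called genes are described below by their place in the pathway.

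Of the 22 members in the COPII and COPI coats, 7 rose and none fell, with a median log2 fold change of 0.20. Of the 21 tested genes of the signal recognition particle, translocon, TRAP complex and signal peptidase, none rose and 4 fell, with a median of -0.15. The coats also have longer transcripts, with a median of 3184 bases against 1047 for the entry genes, and fold change followed transcript length over the whole table. With that length trend removed, 7 coat genes rose and none fell, 3 entry genes fell and none rose, and the medians were 0.11 and -0.12. Without control replicate 2, Cope of the coats fell, and without db/db replicate 3 or control replicate 4, Srp54c of the entry genes rose. The eighth gene that rose was Sec22b. No gene of the p24 family or the signal recognition particle was called in either direction. These counts describe the lists and were not tested against other genes. Over all tested genes 16.0% were higher and 11.6% lower, and among those of up to 1000 bases 9.33% and 25.9%. Outside the name rule, 3 of 21 COPII and COPI accessory factors rose and 2 fell. The division into entry and coat steps was made with the results known.

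**Figure D1:**
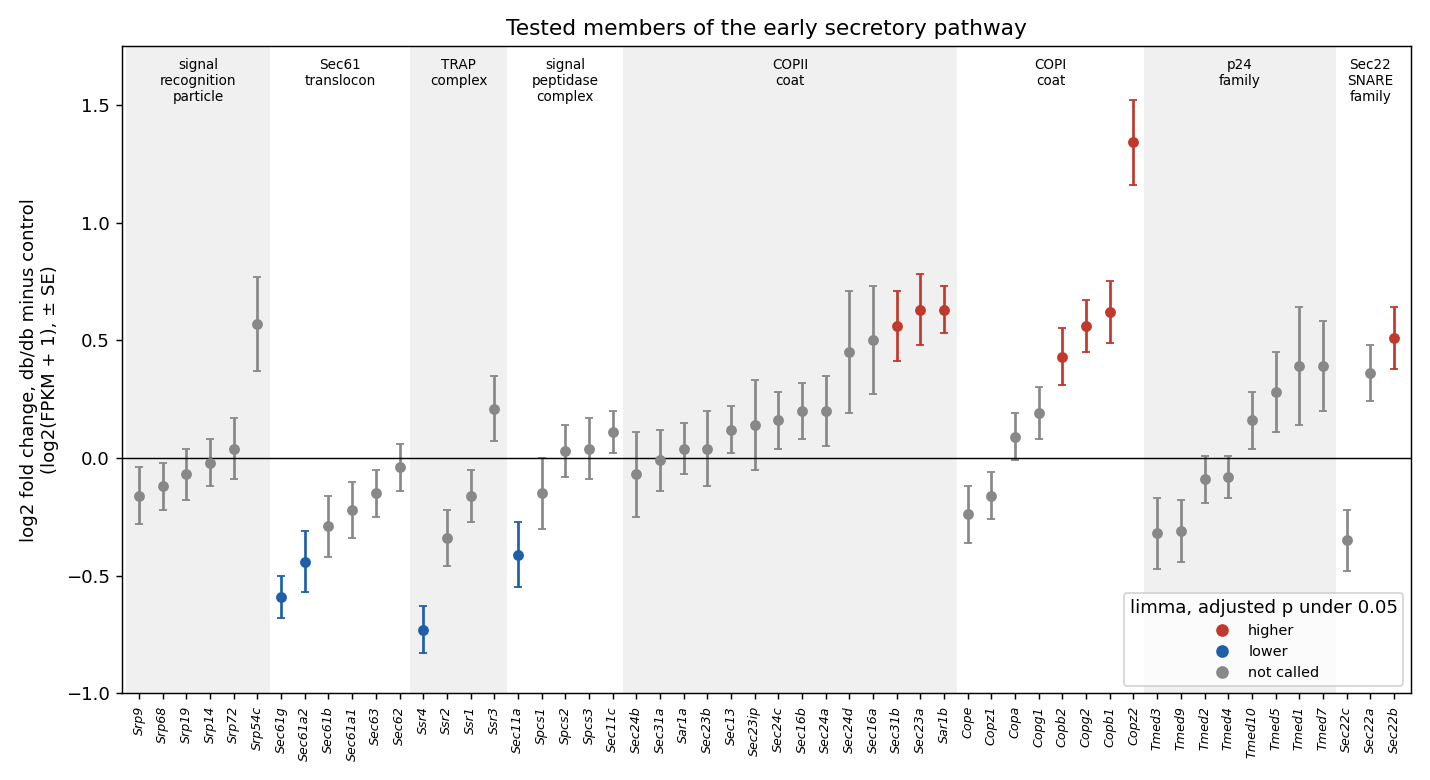
Log2 fold change of db/db over control on the log2(FPKM + 1) scale for the 54 tested members, grouped by complex; points are limma estimates, bars are standard errors, and colours mark the call. The 7 red points under COPII and COPI and the 4 blue points under the translocon, TRAP and signal peptidase lie in different steps of the pathway.

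In the COPI coat 4 of the 8 genes matched by the name rule rose, and 6 of 8 had a positive log2 fold change. Of all 9863 tested genes, 16.0% were higher and 5367 had a positive log2 fold change. The largest change was in Copz2, the second form of the small zeta subunit. Copz2 stood at 20.4, 29, 22.4 and 29.3 FPKM in db/db libraries and at 10.4, 12.3, 6.66 and 8.57 FPKM in control libraries. Every db/db library lay above every control library, and the means were 25.3 ± 4.54 and 9.49 ± 2.42 FPKM. The log2 fold change was 1.34 ± 0.18 (SE, adjusted p = 0.000441). Its paralogue Copz1, the common zeta subunit, did not share this difference. Copz1 stood at 90.9, 88, 84.8 and 96.1 FPKM in db/db and at 103, 86, 112 and 105 FPKM in control libraries, with overlapping groups and a log2 fold change of -0.16 (adjusted p = 0.271).

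Copb1, the beta subunit, stood at 38.4, 32.4, 31.3 and 36 FPKM in db/db and 23.8, 22.6, 17.2 and 25.3 FPKM in control libraries. The groups did not overlap, and the log2 fold change was 0.62 ± 0.13 (adjusted p = 0.00572). Copb2, the beta prime subunit, stood at 61.1, 55.5, 49 and 53.3 FPKM against 43.4, 38.4, 34.3 and 45.9 FPKM. Again no control library reached the lowest db/db library, and the log2 fold change was 0.43 ± 0.12 (adjusted p = 0.0205). The Copb2 call was lost without db/db replicate 2 (adjusted p = 0.0527) or without control replicate 2 (adjusted p = 0.0521), at a log2 fold change of 0.42 and 0.41.

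The gamma subunit is encoded by a pair of genes that differed in level. Copg2, the less abundant form, stood at 7.52, 7.18, 6.51 and 6.99 FPKM in db/db and 4.1, 4.86, 4.03 and 4.85 FPKM in control libraries, with no overlap and a log2 fold change of 0.56 ± 0.11 (adjusted p = 0.00362). Copg1 stood at 19.8, 22.9, 22.8 and 17.3 FPKM against 18.8, 16.6, 18.3 and 17.8 FPKM, which overlapped, with a log2 fold change of 0.19 (adjusted p = 0.233). Copg2 shares 912 bases of its locus with Mest on the opposite strand. Mest was also higher, at 2.03 ± 0.433 against 0.469 ± 0.189 FPKM (log2 fold change 1.05, adjusted p = 0.000461). Whether strand was used in counting is not given in the sources used here, and the part of Mest reads in the Copg2 value was not tested. The remaining COPI members, Copa (alpha) and Cope (epsilon), had log2 fold changes of 0.09 and -0.24 and were not called. The delta subunit gene, Arcn1, is not matched by the name rule and is counted below among the accessory factors. Arcn1 stood at 44.3, 36.3, 31.2 and 34.8 FPKM in db/db and 27.9, 30, 22.4 and 36.2 FPKM in control libraries. Its groups overlapped and it was not called (log2 fold change 0.33, adjusted p = 0.137).

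In the COPII coat 3 of 14 genes rose, none fell, and 12 of 14 had a positive log2 fold change (median 0.18). Over all 9863 tested genes 16.0% were higher, and 5367 had a positive log2 fold change. The COPII transcripts are long (median 3531 bases). With the length trend removed their median was 0.11, and Sar1a and Sec23b turned negative (-0.04 and -0.05). Sar1b encodes the GTPase that starts coat assembly and was the most abundant of all members. Sar1b stood at 206, 216, 237 and 243 FPKM in db/db and at 156, 150, 128 and 145 FPKM in control libraries. All db/db libraries lay well above all controls, with means of 225 ± 17.4 and 145 ± 12.1 FPKM and a log2 fold change of 0.63 ± 0.10 (adjusted p = 0.00128). The paralogue Sar1a stood at 29, 26, 24.4 and 27.1 FPKM against 25.5, 22, 27.2 and 29 FPKM, so the groups covered the same range (log2 fold change 0.04, adjusted p = 0.81). The gene next to Sar1b in the genome, Sec24a, starts 52 bases away on the other strand. Sec24a, a cargo-binding subunit, stood at 12.7, 17, 15.7 and 13.8 FPKM against 13.1, 16.1, 10.1 and 11.9 FPKM and was not called (log2 fold change 0.20, adjusted p = 0.34).

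Sec23a, the inner coat subunit that stimulates Sar1, stood at 25.4, 22.5, 18.2 and 21.6 FPKM in db/db and 14.1, 16.2, 10.2 and 15.4 FPKM in control libraries. The lowest db/db library lay above the highest control library, and the log2 fold change was 0.63 ± 0.15 (adjusted p = 0.0122). Sec23b, the other form of this subunit, stood at 24.7, 20.7, 18.9 and 16.8 FPKM against 19.1, 19, 15.7 and 25.6 FPKM, with full overlap (log2 fold change 0.04, adjusted p = 0.889). Sec23a and Sec23b thus stood at near-equal levels in db/db livers, while Sec23b was the more abundant in all 4 control libraries.

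Sec31b, a form of the outer coat subunit, stood at a low 1.72, 1.99, 1.34 and 2.38 FPKM in db/db and 1.05, 1.15, 0.688 and 0.844 FPKM in control libraries. The groups did not overlap, and the log2 fold change of 0.56 ± 0.15 (adjusted p = 0.0161) on the log2(FPKM + 1) scale understates a ratio of means of 1.99. The highest adjusted p of Sec31b in the alternatives was 0.0486. Its locus overlaps Gm20538 on the same strand by 2143 bases, and Gm20538 was listed at practically 0 FPKM. Of the distinct 31-base stretches in Sec31b transcripts, 98.4% occur in no other gene. How shared reads were assigned was not tested. Sec31a, which carried nearly all Sec31 expression, stood at 52.3, 65.1, 78.8 and 54 FPKM against 57.1, 63.9, 63.4 and 64.4 FPKM (log2 fold change -0.01, adjusted p = 0.965). Its db/db libraries spread on both sides of the controls.

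The other 3 Sec24 forms, which bind cargo, and both Sec16 scaffold genes of ER exit sites were not called. Sec24b stood at 8.66, 8.71, 8.96 and 12.1 FPKM in db/db and 12.6, 12.7, 7.39 and 8.65 FPKM in control libraries, and Sec24c at 20.2, 19, 15.4 and 16.3 FPKM against 14.4, 17.1, 14.2 and 17.3 FPKM. Both overlapped, with log2 fold changes of -0.07 and 0.16. Sec24d stood at 15.2, 14.5, 9.84 and 13.7 FPKM against 10.4, 8.35, 5.43 and 15.8 FPKM (log2 fold change 0.45, adjusted p = 0.216). Control replicate 4 held the highest Sec24d value of all, and without it the log2 fold change was 0.68 (adjusted p = 0.0395).

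Sec16a stood at 14.1, 9.26, 7.8 and 5.65 FPKM in db/db and 5.21, 5.58, 5.09 and 8 FPKM in control libraries (log2 fold change 0.50 ± 0.23, adjusted p = 0.13). The db/db libraries differed more among themselves than the group means did. Without db/db replicate 4 the log2 fold change was 0.69 (adjusted p = 0.0422). Sec16b, the form with the higher level here, stood at 18.5, 15.1, 16.9 and 18.2 FPKM against 14.3, 17.8, 13.3 and 14 FPKM (log2 fold change 0.20, adjusted p = 0.244). Sec13, shared by the coat and the nuclear pore, and the phospholipase-related Sec23ip had log2 fold changes of 0.12 and 0.14.

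Summed over its 14 genes, the COPII group held 480, 495, 506 and 496 FPKM in db/db and 396, 394, 349 and 408 FPKM in control libraries. Sar1b made up most of that difference. Without it the sums were 269 ± 11 and 242 ± 17 FPKM, and db/db libraries (253 to 278) overlapped control libraries (221 to 262). The COPI sums lay closer together, at 340 to 362 against 292 to 339 FPKM, and the abundant Copz1 and Cope leaned the other way. These sums leave out Arcn1 (31.2 to 44.3 against 22.4 to 36.2 FPKM), so the narrow gap holds for the matched members only.

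**Figure D2:**
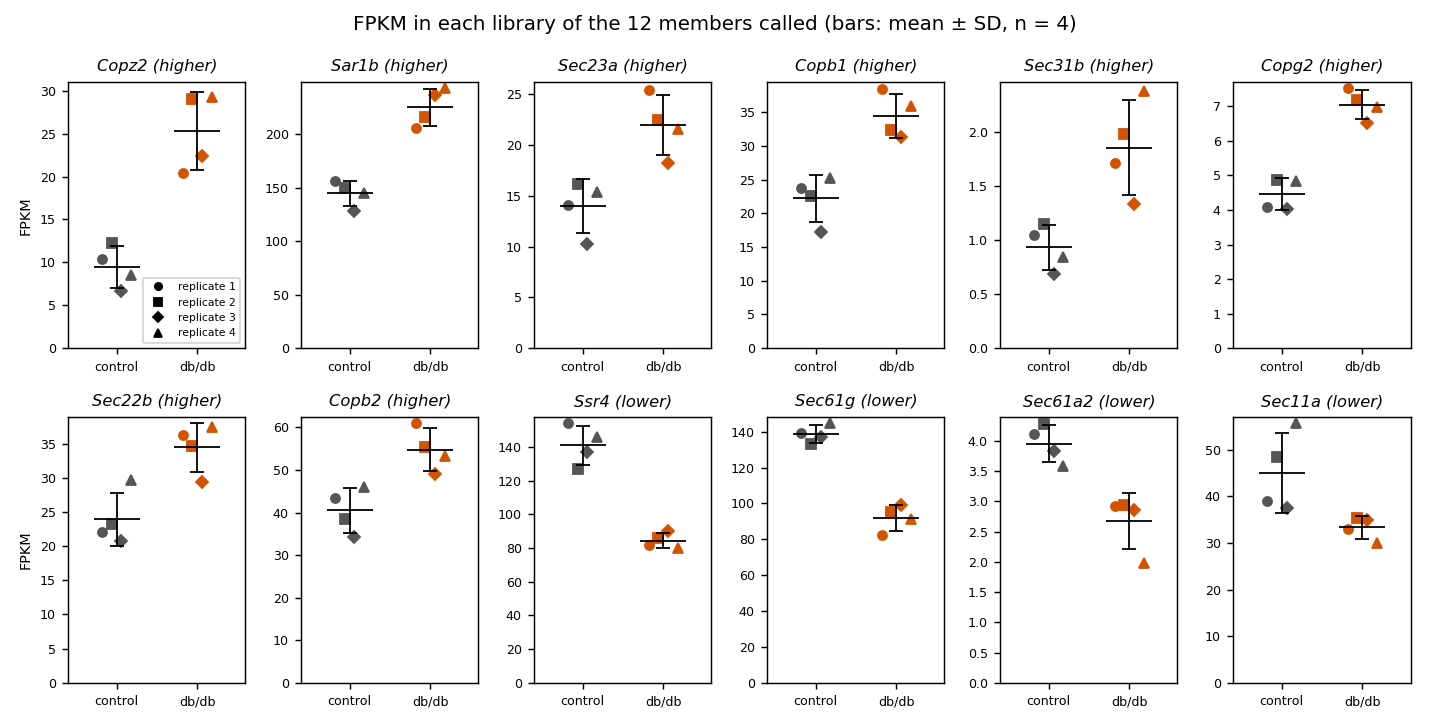
FPKM in each library (symbols mark replicates 1 to 4) of the 12 members called, with the mean and SD of 4 libraries per group and each vertical axis starting at 0. Copz2, at 20.4 to 29.3 against 6.66 to 12.3 FPKM, has the widest gap in proportion, and Sec22b is the one panel in which a db/db and a control library cross.

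At the entry step the differences ran the other way. All 6 genes of the Sec61 translocon and its partners had a negative log2 fold change (median -0.25), and 2 fell. Of all 9863 tested genes, 11.6% were lower and 4496 had a negative log2 fold change. Sec61g encodes the small gamma subunit of the channel. Its level was 82.2, 95, 99 and 91.3 FPKM in db/db and 139, 133, 137 and 145 FPKM in control libraries. No db/db library came near the lowest control library, and the log2 fold change was -0.59 ± 0.09 (adjusted p = 0.00112). Of the distinct 31-base stretches in its annotated transcripts, 84.3% occur in no other gene, so some of its reads could belong to copies.

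Sec61a2, the minor form of the channel-forming alpha subunit, stood at 2.92, 2.94, 2.86 and 1.99 FPKM in db/db and 4.11, 4.28, 3.83 and 3.59 FPKM in control libraries, with no overlap and a log2 fold change of -0.44 ± 0.13 (adjusted p = 0.0269). The call was lost without db/db replicate 4 (log2 fold change -0.34, adjusted p = 0.0731), control replicate 1 (-0.42, 0.0662) or control replicate 2 (-0.41, 0.0651). Its locus overlaps Nudt5 on the opposite strand by 909 bases, and Nudt5 leaned upward (log2 fold change 0.29, adjusted p = 0.158). Sec61a1, the main alpha form, stood at 37.4, 36.3, 37.1 and 29.6 FPKM against 40.7, 34.8, 43.4 and 45.1 FPKM and was not called (log2 fold change -0.22, adjusted p = 0.199). Sec61b, the beta subunit, stood at 70.7, 97.5, 105 and 95.4 FPKM against 123, 101, 115 and 110 FPKM (log2 fold change -0.29, adjusted p = 0.129). For both genes control replicate 2 lay within the db/db range. The partners Sec62 and Sec63, which assist entry after translation, had log2 fold changes of -0.04 and -0.15.

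The largest fall of any member was in the TRAP complex. Ssr4, its delta subunit, stood at 82, 85.8, 89.9 and 79.8 FPKM in db/db and 154, 127, 137 and 146 FPKM in control libraries. The groups lay far apart, with means of 84.4 ± 4.45 and 141 ± 11.4 FPKM and a log2 fold change of -0.73 ± 0.10 (adjusted p = 0.000367). Idh3g, which starts 130 bases from Ssr4 on the other strand, stood at 60.7 to 69.1 FPKM in db/db and 47.6 to 62.1 FPKM in control libraries (log2 fold change 0.28, adjusted p = 0.0714). Ssr2, the beta subunit, stood at 58.4, 62.1, 68.9 and 61.2 FPKM against 83, 63.6, 81.1 and 92.6 FPKM, where 1 control library fell within the db/db range (log2 fold change -0.34, adjusted p = 0.0645). Without that library, control replicate 2, Ssr2 passed the threshold (log2 fold change -0.44, adjusted p = 0.0161), and it also passed under median-ratio scaling (-0.39, 0.0431) and quantile normalization (-0.37, 0.0412). With the length trend removed Ssr2, of 840 bases, was weaker (-0.22, 0.176). Ssr1, the alpha subunit, stood at 9.22, 10.7, 10.2 and 8.42 FPKM against 10.8, 11.3, 10.2 and 11.3 FPKM (log2 fold change -0.16, adjusted p = 0.286). Ssr3, the gamma subunit, was the one TRAP gene with a positive value (log2 fold change 0.21, adjusted p = 0.287).

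The summed FPKM of the translocon group was 319 to 379 in db/db and 417 to 456 in control libraries, and that of TRAP was 247 to 268 against 292 to 362. Neither pair of ranges overlapped. Without Sec61g the translocon still held less in db/db, at 261 ± 17.8 against 299 ± 14.7 FPKM and 237 to 280 against 284 to 317 in single libraries. Part of that gap was the short Sec61b (92.3 against 112 FPKM), and the sums were not corrected for the length trend. Without Ssr4 the TRAP sums overlapped, at 176 ± 5.93 against 182 ± 25 FPKM.

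**Figure D3:**
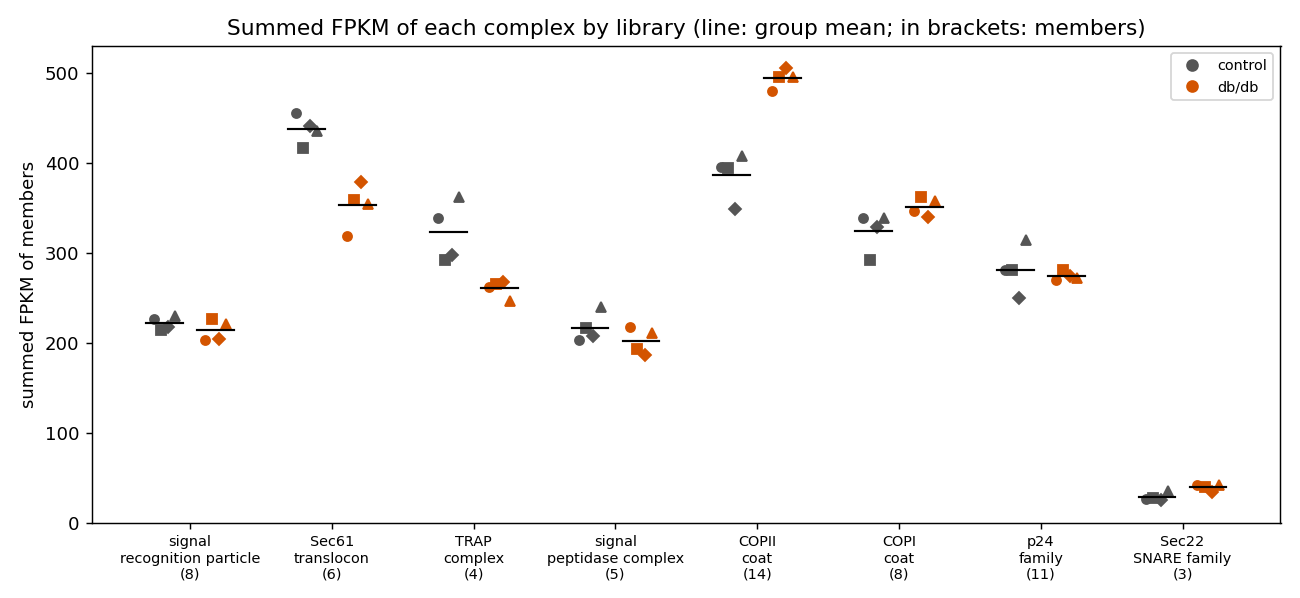
Summed FPKM of the members of each complex in each library, with symbols for replicates 1 to 4, lines for group means and the number of genes in brackets. The sums of the COPII coat (480 to 506 against 349 to 408 FPKM), the Sec61 translocon (319 to 379 against 417 to 456 FPKM) and the TRAP complex (247 to 268 against 292 to 362 FPKM) do not overlap between the groups. The sums of the COPI members (340 to 362 against 292 to 339 FPKM) nearly touch and leave out the coat subunit Arcn1.

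In the signal peptidase complex 1 of 5 genes fell. Sec11a and Sec11c encode alternative catalytic subunits. Sec11a stood at 33, 35.4, 35 and 29.9 FPKM in db/db and 38.9, 48.4, 37.4 and 55.7 FPKM in control libraries, without overlap (log2 fold change -0.41 ± 0.14, adjusted p = 0.0453). This call is the least firm of the 12. It was lost without any single db/db library (adjusted p from 0.0665 to 0.116), without control replicate 2 (0.105) or 4 (0.106), with no filter on low values (0.0704) and with the length trend removed (0.127). Sec11c stood at 44.9, 49.2, 43.2 and 46.7 FPKM against 44.6, 44, 42.8 and 38.5 FPKM (log2 fold change 0.11, adjusted p = 0.403). Spcs1, an accessory subunit, varied widely at 91.8, 62.3, 63.6 and 85.9 FPKM against 72.1, 82.9, 86.6 and 92.5 FPKM (log2 fold change -0.15, adjusted p = 0.473). The accessory subunits Spcs2 and Spcs3 had log2 fold changes of 0.03 and 0.04.

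None of the 6 tested genes of the signal recognition particle was called. Srp9, which with Srp14 pauses translation, stood at 56.2, 75.2, 74 and 78.5 FPKM in db/db and 85.2, 75.1, 80.5 and 74.9 FPKM in control libraries (log2 fold change -0.16, adjusted p = 0.351). Srp68, a structural subunit, stood at 19.3, 17.7, 16.9 and 18.4 FPKM against 17.7, 19.6, 20.4 and 21.6 FPKM (log2 fold change -0.12, adjusted p = 0.394). Both overlapped, and Srp14, Srp19 and Srp72 lay between -0.07 and 0.04 on the log2 scale. The signal-binding subunit is listed under 3 gene names of nearly the same sequence, so its counts could be split among them. Srp54c stood at 6.43, 4.58, 3.58 and 4.71 FPKM against 2.78, 2.59, 1.96 and 4.52 FPKM (log2 fold change 0.57, adjusted p = 0.0599), with 1 control library inside the db/db range. It passed without that library, control replicate 4 (log2 fold change 0.75, adjusted p = 0.0144), or without db/db replicate 3 (0.68, 0.0426). Srp54a (0.118 to 0.533 FPKM) and Srp54b (0.326 to 2.83 FPKM) were too low to be tested. Of the 31-base stretches of Srp54a, 27.5% occur in no other gene. The ID of Srp54b in the table lies elsewhere in GENCODE M21, so no such share is given for it.

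Of the 11 p24 genes, 8 were tested and none was called, with 4 positive and 4 negative log2 fold changes from -0.32 to 0.39. Tmed9 stood at 45.2, 41.6, 40.2 and 44.5 FPKM in db/db and 57.5, 43.2, 51.1 and 64.1 FPKM in control libraries (log2 fold change -0.31, adjusted p = 0.0895). It passed without control replicate 2 (log2 fold change -0.41, adjusted p = 0.0274) and under median-ratio scaling (-0.37, 0.0488). Tmed3, another p24 cargo receptor, stood at 10.8, 12.4, 11.4 and 12 FPKM against 14.7, 11.9, 13.4 and 20.1 FPKM (log2 fold change -0.32, adjusted p = 0.135), with control libraries mostly above the db/db range. Tmed7, which overlaps Ticam2 on the same strand, stood at 21.2, 13.9, 11.8 and 13.4 FPKM against 9.73, 11.5, 8.8 and 14.6 FPKM (log2 fold change 0.39, adjusted p = 0.156). The groups overlapped for all 3. Tmed2 was the most abundant of the family at 105 ± 7.04 against 112 ± 8.68 FPKM. Tmed6 and Tmed11 were listed at 0 in all 8 libraries, and Tmed8 stayed between 0.122 and 0.559 FPKM and was not tested.

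In the Sec22 family, Sec22b, the SNARE of ER to Golgi transport, stood at 36.3, 34.6, 29.4 and 37.4 FPKM in db/db and 22.1, 23.2, 20.7 and 29.6 FPKM in control libraries. The lowest db/db library and the highest control library nearly coincided, and the log2 fold change was 0.51 ± 0.13 (adjusted p = 0.014). Sec22a stood at 4.28, 4.09, 4.22 and 3.9 FPKM against 3.15, 3.09, 2.3 and 3.55 FPKM, without overlap, but missed the threshold (log2 fold change 0.36, adjusted p = 0.0546) and passed without control replicate 4 (0.42, 0.0431). Sec22c had the opposite sign, at 1.24, 1.17, 0.762 and 0.931 FPKM against 1.36, 1.42, 1.7 and 1.8 FPKM, also without overlap (log2 fold change -0.35, adjusted p = 0.0672). It passed under median-ratio scaling (-0.38, 0.043), quantile normalization (-0.43, 0.0281) and with the length trend removed (-0.44, 0.0158). Both are relatives of Sec22b whose trafficking role is less established.

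Several members are paralogues of each other, and whether they can replace each other was not tested. The Sec22 genes are included although the trafficking role of Sec22a and Sec22c is less established. A plain FPKM ratio of 2 genes within a library does not depend on how that library was scaled. Over 17 such pairs, 6 ratios did not overlap between the groups. An exact 2-sided permutation test on the log2 ratios cannot give a p below 0.0286 with 4 libraries a group, and all 6 reached it. After Benjamini-Hochberg adjustment over the 17 pairs that p became 0.081, so no pair passed. Of the 6 pairs, 5 hold a gene called above, and the ratios are not independent of those calls.

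The ratio of Sar1b to Sar1a was 7.09, 8.32, 9.71 and 8.94 in db/db and 6.13, 6.85, 4.71 and 5.01 in control libraries. The ratio of Sec23b to Sec23a was 0.972, 0.92, 1.04 and 0.775 against 1.36, 1.17, 1.54 and 1.66, lower in every db/db library than in any control library. That of Copz2 to Copz1 was 0.225, 0.329, 0.264 and 0.305 against 0.101, 0.143, 0.0597 and 0.0819, the widest shift among the pairs at 1.50 on the log2(FPKM + 1) scale. Copz2 was the minor form in every library. Sec11c exceeded Sec11a in all 4 db/db libraries (1.36, 1.39, 1.23 and 1.56) and in 2 of 4 control libraries (1.15, 0.909, 1.14 and 0.69). The ratio of Sec22c to Sec22b was 0.0249 to 0.0342 in db/db and 0.0608 to 0.0818 in control libraries, and that of Sec22c to Sec22a was 0.181 to 0.289 against 0.43 to 0.736. The Copg2 to Copg1 ratio was 0.286 to 0.403 against 0.218 to 0.293 and overlapped (exact permutation p = 0.0571). No ratio among the 4 Sec24 genes separated the groups.

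**Figure D4:**
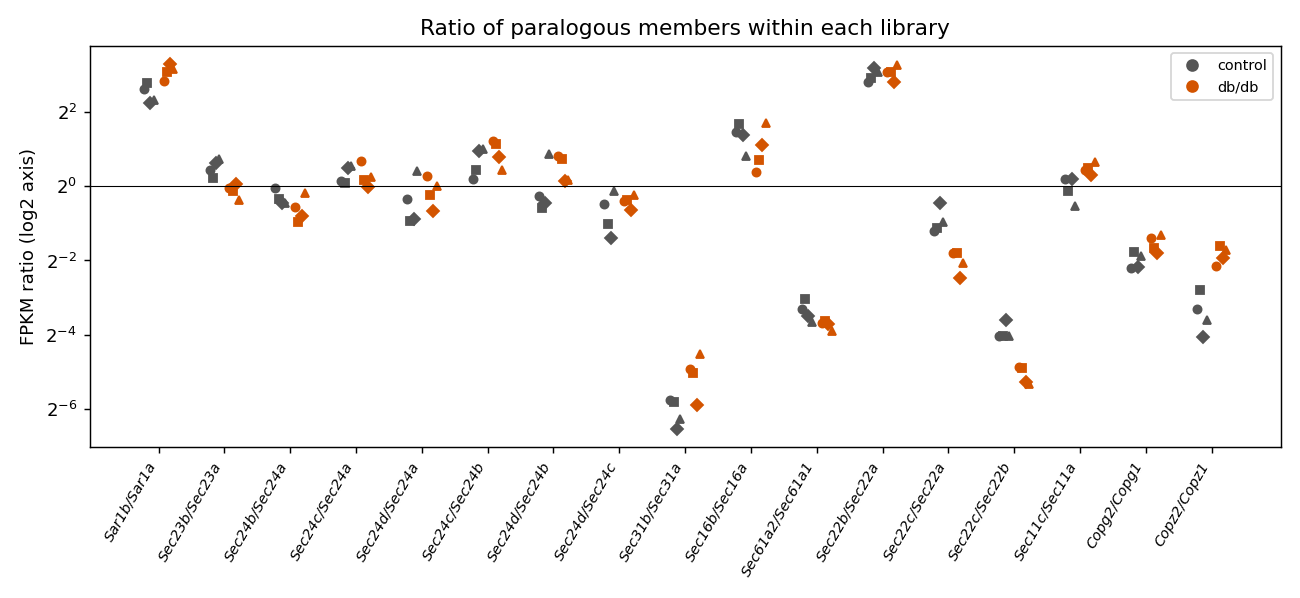
FPKM ratio of each of 17 paralogue pairs within each library on a log2 axis, with grey symbols for control and orange for db/db libraries and symbol shapes for replicates 1 to 4. The groups do not overlap for Sar1b/Sar1a, Sec23b/Sec23a, Sec22c/Sec22a, Sec22c/Sec22b, Sec11c/Sec11a and Copz2/Copz1.

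The members called lower were short transcripts, and length moved with the calls across the whole table. The 4 that fell had a median transcript length of 890 bases (754 to 2110), the 8 that rose 3184 bases (930 to 3961). Among all tested genes of up to 1000 bases, 25.9% were lower and 9.33% higher in db/db livers, while among those of 3000 to 4000 bases 7.97% were lower and 16.6% higher. Spearman's rho between log2 fold change and length was 0.15 over 9702 genes and 0.29 over 53 members, as a description across genes that share libraries. Copz2 (930 bases), Sec22b (1177) and Sar1b (1201) rose although short, and Sec61a2 fell at 2110 bases. With each library's trend on length subtracted, an alternative chosen after seeing the data, 11 of the 12 calls were kept, Sec11a was lost and Sec22c was gained. Ssr4 then had a log2 fold change of -0.59 and Sec61g of -0.44. The medians became 0.23 for COPI, 0.11 for COPII, -0.28 for the translocon and -0.21 for TRAP.

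**Figure D5:**
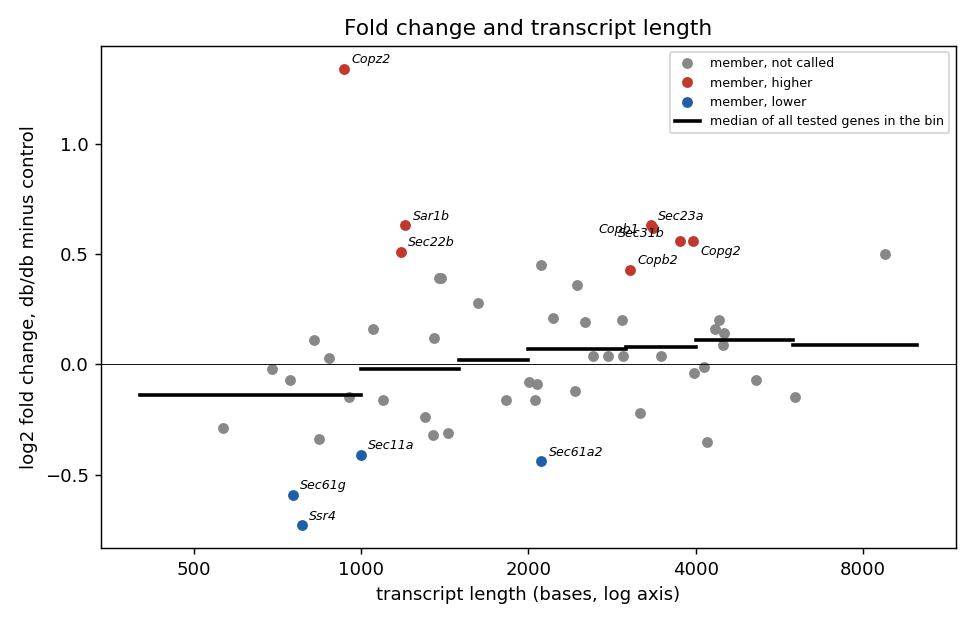
Log2 fold change of db/db over control against transcript length on a log axis for the tested members with a length, with the called members named; black bars are medians of all tested genes in bins of length. The bars climb from -0.14 below 1000 bases to 0.11 between 4000 and 6000 bases, and Ssr4 and Sec61g lie well below the bar of their bin while Copz2 lies far above it.

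Promoters were examined because secretory genes are classical targets of the unfolded protein response, whose factors XBP1 and ATF6 are known to bind short ACGT-centred elements. RefSeq windows of GRCm38.p6, from 250 bases before to 50 after a start site, matched 50 of the 59 members, with 54 windows. The letters TGACGTGG, called the unfolded protein response element (UPRE) here, were sought on both strands (the other strand reads CCACGTCA). They occurred in 5 of the 54 member windows (9.3%) and in 222 of all 32851 windows (0.68%). The 5 genes were Sec23a, Copb1, Copb2, Sec24d and Sec16b, all of the coats. The first 3 are among the genes that rose, and Sec24d and Sec16b had log2 fold changes of 0.45 and 0.20 without a call. The match lay within 44 bases of the start site in every case, from position -44 in Sec16b to position 7 in Sec23a. The whole windows of the 3 genes that rose and 60 bases of the other 2 are shown, with the match in capitals.
Sec23a, chr12:59011968-59012267, minus strand: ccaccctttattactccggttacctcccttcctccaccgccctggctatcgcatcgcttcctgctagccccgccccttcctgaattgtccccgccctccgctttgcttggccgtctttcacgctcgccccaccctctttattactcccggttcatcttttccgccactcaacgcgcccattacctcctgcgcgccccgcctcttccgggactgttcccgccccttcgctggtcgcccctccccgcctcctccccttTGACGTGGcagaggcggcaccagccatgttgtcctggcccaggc
Copb1, chr7:114254631-114254930, minus strand: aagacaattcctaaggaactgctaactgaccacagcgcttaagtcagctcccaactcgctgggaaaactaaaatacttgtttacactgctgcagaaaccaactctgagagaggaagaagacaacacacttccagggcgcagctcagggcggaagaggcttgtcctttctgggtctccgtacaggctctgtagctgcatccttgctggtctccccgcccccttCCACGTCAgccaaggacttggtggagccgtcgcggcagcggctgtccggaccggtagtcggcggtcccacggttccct
Copb2, chr9:98563481-98563780, plus strand: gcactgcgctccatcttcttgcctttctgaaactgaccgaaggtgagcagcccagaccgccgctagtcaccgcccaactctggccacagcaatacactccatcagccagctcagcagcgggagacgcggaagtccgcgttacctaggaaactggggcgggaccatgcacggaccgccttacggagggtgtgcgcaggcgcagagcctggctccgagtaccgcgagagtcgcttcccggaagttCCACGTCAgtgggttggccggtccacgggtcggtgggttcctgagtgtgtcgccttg
Sec24d, chr3:123267444-123267503, plus strand: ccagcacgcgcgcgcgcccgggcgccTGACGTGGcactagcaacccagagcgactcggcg
Sec16b, chr1:157506726-157506785, plus strand: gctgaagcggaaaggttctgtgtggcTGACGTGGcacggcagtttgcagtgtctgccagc

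The 6 bases CCACGT at the core of this element, which overlap it, occurred in 23 of the 54 member windows (42.6%, 22 genes) and in 8.31% of all windows. Those 22 genes included 4 that rose (Copb1, Copb2, Copz2 and Sec23a) and none that fell, and 18 that were not called. Copz2 had the core 2 times, once on each strand. Its window is shown with both in capitals, beside that of Ssr4, the gene that fell most, which has neither the core nor the full element and in which the capitals mark CTTCCGG, the reverse complement of the ETS factor motif CCGGAAG.
Copz2, chr11:96849626-96849925, plus strand: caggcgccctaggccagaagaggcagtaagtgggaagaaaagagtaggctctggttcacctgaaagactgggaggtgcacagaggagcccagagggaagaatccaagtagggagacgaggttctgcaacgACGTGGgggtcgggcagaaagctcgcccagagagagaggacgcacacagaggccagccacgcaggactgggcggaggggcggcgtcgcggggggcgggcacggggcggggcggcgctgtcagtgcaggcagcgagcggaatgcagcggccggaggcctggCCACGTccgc
Ssr4, chrX:73786773-73787072, plus strand: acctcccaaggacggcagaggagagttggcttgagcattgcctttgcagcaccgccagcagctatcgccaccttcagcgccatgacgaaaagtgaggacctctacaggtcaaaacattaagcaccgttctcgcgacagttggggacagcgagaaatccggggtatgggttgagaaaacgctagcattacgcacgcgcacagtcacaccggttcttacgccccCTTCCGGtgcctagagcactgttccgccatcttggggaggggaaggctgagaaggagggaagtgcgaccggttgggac

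Over the whole table, genes with a match were called at shares near those of all tested genes. Of the 74 tested genes with TGACGTGG, 17.6% were higher and 6.76% lower (median log2 fold change 0.13), and of the 1017 with CCACGT, 13.4% were higher and 10.4% lower (median 0.02), against 16.0% and 11.6% of all tested genes. The longer ER stress elements ERSE and ERSE-II were in no member window and in 0.12% and 0.04% of all windows. The cAMP element TGACGTCA, which differs from the UPRE at its end, was in 1 member window (Cope) and in 1.79% of all. In all, 17 patterns were searched. Of the others, the CCAAT box was in 24 member windows and in 37.41% of all windows. The GC box, with the letters GGGCGG, was in 33 member windows and in 35.66% of all. The ETS letters were in 14 member windows and in 8.86% of all. The E-box, spelled CACGTG, can overlap the core and was in 7 member windows and in 7.15% of all. The TATA letters TATAAA were in 1 member window, that of Sec31a, against 13.62% of all. The HNF4 motif CAAAGTCCA was in 1 member window and the DR1 motif in 2, those of Srp54a and Srp54c. The NRF1, YY1, SRE and HNF1 motifs and TTGCGCAA (C/EBP) were in none. A match describes letters in a window and not the binding of a factor.

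Of 12 tested genes for ER stress and secretory transcription factors, none rose and 1 fell, against 16.0% and 11.6% of all tested genes. With so few genes these counts are no result about the list. The gene that fell was Atf4, a factor of the integrated stress response, at 45.8 to 50.9 FPKM in db/db and 61.9 to 92 FPKM in control libraries (log2 fold change -0.58 ± 0.13, adjusted p = 0.00795). Xbp1, named after its values were seen, stood at 52.5, 40.9, 42.1 and 44.2 FPKM against 61.2, 70.8, 41.7 and 97.7 FPKM, with a wide control range (log2 fold change -0.53 ± 0.21, adjusted p = 0.0937). Spliced and unspliced Xbp1 were not told apart in gene values. The activity of these factors was not measured, and whether the response differed was not tested.

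Neighbouring steps of the pathway were read from 7 further lists, of 120 genes in the table, 117 tested, with 13 higher (11.1%) and 12 lower (10.3%) and a median log2 fold change of 0.06. All genes gave 16.0% and 11.6%, so these totals too are no result about the lists, and the genes below are given for their own values. Of the 25 calls, 13 were kept in all 14 alternatives. Among SRP receptor and translocon partners, 3 of 12 fell and none rose. Tram1, which sits beside the channel, stood at 29.6, 35.8, 37.1 and 32.2 FPKM in db/db and 62.4, 55.1, 53.2 and 55.4 FPKM in control libraries (log2 fold change -0.73 ± 0.11, adjusted p = 0.000605). The ER co-chaperones Dnajb11 and Dnajc1 had log2 fold changes of -0.67 and -0.46, the latter lost in 7 of 14 alternatives. The chaperone Hspa5, chosen after its values were seen, stood at 311 ± 37.6 against 376 ± 75.1 FPKM and was not called (adjusted p = 0.244). In the oligosaccharyltransferase, which adds N-glycans beside the translocon, Krtcap2 fell (log2 fold change -0.54) and Tusc3 rose (0.87), with 10 of 12 genes not called.

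At the vesicle step, 3 of 21 COPII and COPI accessory factors rose and 2 fell. Rab1b, a GTPase of ER to Golgi transport, stood at 58.8, 60.1, 60.3 and 54.6 FPKM against 35.1, 33.5, 38 and 41.9 FPKM (log2 fold change 0.64 ± 0.10, adjusted p = 0.000953), and its relative Rab1 had 0.37. Ctage5 and Mia3, which act together in loading large cargo at exit sites, went apart. Ctage5 stood at 149 ± 11.1 against 117 ± 9.96 FPKM (log2 fold change 0.35) and Mia3 at 30.4 ± 1.61 against 38.6 ± 2.76 FPKM (-0.33). Arfgap2, which releases COPI coats, fell by 0.45 on the log2 scale. Only the Rab1b call was kept throughout. Those of Rab1, Ctage5, Mia3 and Arfgap2 were lost in 5, 8, 4 and 4 of the 14 alternatives, so that 1 gene was higher under median-ratio scaling, with the length trend removed, or without db/db replicate 2 or control replicate 3, and none was lower without db/db replicate 2. The highest adjusted p over these alternatives was 0.0851, 0.0586, 0.0726 and 0.0703.

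Of 26 ER to Golgi SNAREs and tethers, 3 rose and 2 fell. Bet1, a SNARE partner of Sec22b, stood at 45, 50.4, 52.7 and 48.9 FPKM against 26.2, 32.6, 21.5 and 31.8 FPKM (log2 fold change 0.81 ± 0.14, adjusted p = 0.00153), and the SNARE regulator Scfd1 and the ER SNARE Stx18 had 0.54 and 0.57. Rint1 and Use1, of the retrograde tether and SNARE complex at the ER, had -0.60 and -0.58. The calls of Scfd1, Stx18 and Use1 were lost in 3, 11 and 1 of the 14 alternatives (highest adjusted p 0.0631, 0.127 and 0.0566). Among 18 tested cargo receptors and ERGIC proteins, 3 rose and 3 fell. Bcap29 (log2 fold change 0.74), and Lman2 (0.41) and Mcfd2 (0.40), a lectin receptor and a partner of the lectin Lman1, rose. The KDEL receptor Kdelr2, which retrieves ER chaperones, fell from 42.2 ± 2.28 to 27.4 ± 2.25 FPKM (log2 fold change -0.60, adjusted p = 0.00125), as did Ergic2 and Lman2l (both -0.51). The falls were kept in all alternatives, while Lman2 and Mcfd2 were lost in 7 and 8 (highest adjusted p 0.09 and 0.0882). Of 16 genes for insertion of tail-anchored and multi-pass proteins, 3 rose (Emc2, Emc9 and Mmgt1, with 0.40, 0.48 and 0.45) and none fell. Emc2 was kept in all alternatives, and Emc9 and Mmgt1 were each lost in 11 (highest adjusted p 0.111 and 0.102).

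Single libraries had regular positions among the members. Control replicate 4 was the highest of its group for 32 of the 54 tested members and control replicate 3 the lowest for 29. In db/db livers, replicate 1 was the highest for 23 and replicate 3 the lowest for 21. Without db/db replicate 1, the library that stood apart over all genes, 8 members were higher and 3 lower, and without control replicate 4, 11 were higher and 3 lower. Over all alternatives tried, Copz2, Sar1b, Sec23a, Copb1, Copg2, Sec31b, Sec22b, Ssr4 and Sec61g kept their calls.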

How the data were processed

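Stranded libraries were made from rRNA-depleted liver RNA. Tools named in the submitters' processing notes are cutadapt 1.9.3, HISAT2 2.0.4, Cufflinks and Cuffdiff, with build mm10. The deposited table holds FPKM that the authors computed per gene and library; no read counts were used. Neither the annotation release nor whether counting used strand is given in the sources used here. Short transcripts are hard to scale by length, so FPKM of genes such as Sec61g depend on the authors' length model.

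Genes reaching 1 FPKM in 4 or more of 8 libraries were tested on log2(FPKM + 1) with limma 3.58.1 in R 4.3.3 (mean-variance trend, 2-sided, no covariate), with Benjamini-Hochberg adjustment over all 9863 genes and a threshold of 0.05. The fit was tested on simulated data. A fold change on this scale understates that of low genes. Per-library values are printed for called members, for the 3 members of each complex with the smallest adjusted p and for paralogue sets (37 genes). From other lists up to 4 called genes are named. Members, lists and motifs were chosen with earlier results of these data known. Alternatives were a pseudocount of 0.1, no filter, median-ratio scaling, quantile normalization, array weights, each library left out and, added later, removal of a length trend. Transcript lengths (median over basic coding transcripts), overlaps and 31-base stretches came from GENCODE M21 (GRCm38), which held 21839 of the gene IDs. Promoters came from RefSeq.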

Additional observations from a re-analysis of the deposited data

Results flagged for a closer look

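Among 108 groups of 4 libraries (54 tested members in each group), 5 held a library far from the other 3. Chance gives such a library in about 1 in 20 groups, and 5 of 108 is about that share. Sec16a was 8 FPKM in control replicate 4 and 5.09 to 5.58 FPKM in the other controls. Sec24b was 12.1 FPKM in db/db replicate 4 and 8.66 to 8.96 FPKM in the others. Sec31a was 57.1 FPKM in control replicate 1 and 63.4 to 64.4 FPKM in the others. In db/db replicate 4 both channel-forming genes were low, Sec61a1 at 29.6 FPKM (others 36.3 to 37.4) and Sec61a2 at 1.99 FPKM (others 2.86 to 2.94).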

How the results depend on the processing

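The number of members higher in db/db livers was 8 under each setting that kept all libraries and 7 to 11 with a library left out. The number lower was 4, 7 under median-ratio scaling, where Sec22c, Ssr2 and Tmed9 were added, 6 under quantile normalization, where Sec22c and Ssr2 were added, and 3 with no filter, where Sec11a was lost; with a library left out it was 2 to 5, and 2 without db/db replicate 4. The median log2 fold change of members was 0.039, and -0.015 under median-ratio scaling, -0.012 under quantile normalization and -0.008 with the length trend removed. With a library left out it ranged from 0.003 to 0.099, the latter without control replicate 4. The cause was not tested. The median of all tested genes moved alike, from 0.042 to -0.005 and -0.010 under the 2 scalings. 

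Of the 54 tested members, 12 changed sign in at least 1 of 14 alternatives, none of them called, and 7 of these with the length trend removed. Among the 37 named members there were 4. Sar1a was -0.012 under median-ratio scaling, -0.015 under quantile normalization and -0.041 with the length trend removed. Sec23b was -0.018, -0.020 and -0.049 under these and -0.033 with array weights. Sec31a was 0.058 with array weights. With a library left out, Sar1a ranged from -0.033 to 0.097, Sec23b from -0.064 to 0.160, Sec24b from -0.207 to 0.027 and Sec31a from -0.125 to 0.068. No paired analysis was possible because the labels share no replicate numbers between the groups that would pair libraries.

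FPKM hold no read totals, so no counting error can be given. Supplier and age of the mice cannot be told apart from genotype here.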
